A study of Homo sapiens with 4 samples.

Results

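The cadherins and the protocadherins were read as 63 genes, out of 18417 genes with a probe set of their own on the arrays. They were taken by name: every gene whose only annotated symbol starts with PCDH, or is CDH followed by digits. Of these, 18 belonged to the PCDHB cluster, 12 to the PCDHA cluster and 1 (PCDHGB4) to the PCDHG cluster, 11 were protocadherins outside the clusters, and 21 were cadherins. Each gene was represented by its brightest probe set over the 4 arrays. PC-3-BM is a bone-metastatic derivative of PC-3, recovered from bones of nude mice after repeated passage by intracardiac injection, and labelled as having high metastatic potential. PC-3 is the parental line, an established human prostate cancer line that came from a bone metastasis, labelled as having poor metastatic potential. Both lines carried a firefly luciferase and green fluorescent protein reporter, and PC-3-BM is 1 derivative. The labels speak of cells grown in mice and the methods of cells in culture, so it is not settled here in which state the cells were harvested.

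Cadherins are membrane proteins whose extracellular repeats bind calcium and the same repeats on a neighbouring cell, and whose tails hold catenins and, through them, actin. Type I cadherins such as E-cadherin and N-cadherin set the tightness of epithelial and mesenchymal contacts, and type II cadherins sort cells more finely during development. Protocadherins lack the catenin-binding tail. The clustered ones lie in tandem on chromosome 5, each with its own promoter, and in neurons single cells switch on different members, which gives each cell a surface identity. A change of the cadherins that prostate cancer cells carry, from E-cadherin towards N-cadherin and cadherin-11, is a familiar feature of advanced disease.

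The arrays were 4 Affymetrix Human Gene 1.0 ST arrays, 2 of PC-3-BM and 2 of PC-3, with expression as log2 values. The medians were 6.66 and 6.68 on the PC-3-BM arrays and 6.72 and 6.69 on the PC-3 arrays. Pearson's r over all probe sets, a description only because probe sets are not independent, was 0.996 for the PC-3-BM arrays, 0.997 for the PC-3 arrays and 0.983 to 0.985 between the lines. Whether the arrays of a line hold separate cultures is not given in the labels, so every p-value reflects the spread among these 4 arrays alone, and that spread may be technical. Differences are PC-3-BM minus PC-3 on the log2 scale, with the standard error (SE) of the fit. Rose and fell are used of an adjusted p below 0.05 over all 33297 probe sets. By that measure 11.6% of all probe sets rose and 11.6% fell, as did 14.8% and 14.8% of the genes. Each array read a whole population of cells, so a higher level in each cell and a larger share of cells that express the gene cannot be told apart.

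Across the whole family, 15 of 63 members (23.8%) rose and 2 (3.17%) fell in PC-3-BM. The median difference was 0.02, beside -0.04 for all genes. Both PC-3-BM arrays lay above both PC-3 arrays for 24 members, while this held for 30.9% of all genes, and below them for 20 members, beside 39.8% of all genes. In the fit made here, PCDHB16 was the only member past the study's own thresholds. These ask for an adjusted p under 0.001 and an absolute log2 change over 2, and 0.0511% of all probe sets passed them. The paper reports more genes at such thresholds than passed here. Its list was not compared with the members, and why the counts differ was not tested.

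The promoters of the PCDHB genes are shown first, because the members that rose and those that did not share a stretch of sequence. RefSeq promoters of build GRCh38.p14, each from 250 bases before to 50 bases after the gene start, were found for 14 of the 18 members. The 9-base run present in most of them was GGTGGCGCT, found in 13 of 14, and it was picked after the sequences had been compared. It begins 2 to 84 bases before the gene start, and it contains CGCT, the core of the conserved element of clustered protocadherin promoters. The 49 bases around it follow, all on the plus strand, with the run in capitals. First come the 5 matched members that rose, then PCDHB13 and PCDHB8, which differ from each other at a single base, then PCDHB2, PCDHB15 and PCDHB1, which were not called.
PCDHB16 (chr5:141182301-141182349): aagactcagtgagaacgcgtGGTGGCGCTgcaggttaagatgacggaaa
PCDHB9 (chr5:141187065-141187113): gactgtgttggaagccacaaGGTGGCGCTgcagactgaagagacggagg
PCDHB10 (chr5:141192290-141192338): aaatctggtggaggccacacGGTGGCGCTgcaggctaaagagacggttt
PCDHB12 (chr5:141208634-141208682): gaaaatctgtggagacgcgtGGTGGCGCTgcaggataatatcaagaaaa
PCDHB14 (chr5:141223254-141223302): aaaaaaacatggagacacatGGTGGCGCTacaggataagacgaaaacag
PCDHB13 (chr5:141213856-141213904): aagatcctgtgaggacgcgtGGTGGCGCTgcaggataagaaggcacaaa
PCDHB8 (chr5:141177768-141177816): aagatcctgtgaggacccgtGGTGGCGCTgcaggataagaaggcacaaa
PCDHB2 (chr5:141094535-141094583): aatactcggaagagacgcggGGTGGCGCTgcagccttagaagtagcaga
PCDHB15 (chr5:141245305-141245353): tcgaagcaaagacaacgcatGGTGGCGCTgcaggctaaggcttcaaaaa
PCDHB1 (chr5:141051328-141051376): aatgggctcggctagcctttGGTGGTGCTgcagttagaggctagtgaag
The run was complete in all 5 matched members that rose and in 8 of the 9 that were not called. In PCDHB1 the nearest run carried C6T, counted from the 5′ end of the shared run. Of all 35116 promoter windows in the table, 0.501% held the run on either strand. None of the 11 PCDHA windows or the 22 PCDHGA and PCDHGB windows did. Nor did the 10 windows of 9 non-clustered protocadherins or the 21 windows of 11 cadherins. CDH1, CDH6 and CDH11 were among the cadherins without a window. Over the 49 bases, PCDHB13 matched PCDHB16 at 40 positions and PCDHB8 matched it at 39. The differences between the lines were 0.53 for PCDHB13, 0.30 for PCDHB8 and 2.57 for PCDHB16. The stretch before the PCDHB16 start, the member with the largest difference, is given as 250 bases with the same run in capitals.
PCDHB16 (chr5:141182137-141182386): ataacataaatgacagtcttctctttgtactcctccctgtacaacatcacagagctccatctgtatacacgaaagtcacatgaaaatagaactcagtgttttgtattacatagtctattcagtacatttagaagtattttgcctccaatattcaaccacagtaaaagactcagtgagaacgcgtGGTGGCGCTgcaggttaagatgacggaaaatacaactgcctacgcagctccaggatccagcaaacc
Other motifs were searched in the same windows. CGCT, searched on both strands as all motifs were, was in 14 of 14 and in 70.0% of all promoters. In 13 of the 14 this follows from the shared run, which contains it. In PCDHB1 the C6T change takes CGCT out of the nearest run, and the letters occur elsewhere in the window. The E-box CANNTG, a site read by repressors of E-cadherin, was in 9 of 14 and in 68.7% of all promoters. TATAA was in 4 of 14 and in 20.4% of all. The CTCF core motif, named for the factor that loops clustered protocadherin promoters to their enhancers, was in 0 of 14 and in 0.47% of all, which says only that these letters are not in this window.

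In the PCDHB cluster, 6 of 18 members (33.3%) rose in PC-3-BM and 0 fell, beside 14.8% of all genes in each direction. The median difference of the cluster was 0.30. Both PC-3-BM arrays lay above both PC-3 arrays for 12 members, beside 30.9% of all genes, and below them for 1, beside 39.8%. PCDHB proteins are cell-surface recognition proteins, each encoded by a gene with a single coding exon.

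PCDHB16 stood at 8.27 and 8.28 on the PC-3-BM arrays, against 5.71 and 5.69 on the PC-3 arrays. The arrays of each line nearly coincided while the lines were 2.57 apart (SE 0.07, adjusted p = 0.000833), a 5.96-fold higher level in PC-3-BM. PCDHB10 came next, with 7.22 and 7.08 on the PC-3-BM arrays, against 5.83 and 6.29 on the PC-3 arrays. Its lines did not overlap, but the PC-3 arrays were the widest apart of any PCDHB member, and the difference of 1.09 carried an SE of 0.17 (adjusted p = 0.013).

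PCDHB9 had 9.23 and 9.17 on the PC-3-BM arrays and 8.41 and 8.35 on the PC-3 arrays, a difference of 0.82 (SE 0.07, adjusted p = 0.00384). PCDHB14 had 8.69 and 8.65 in PC-3-BM and 7.91 and 7.85 in PC-3, a difference of 0.79 (SE 0.07, adjusted p = 0.00394). These are 1.77-fold and 1.72-fold higher levels, with arrays of a line close together in both genes. PCDHB12 had 6.11 and 6.23 on the PC-3-BM arrays and 5.53 and 5.57 on the PC-3 arrays (difference 0.62, adjusted p = 0.00781). PCDHB11 had 6.88 and 6.86 in PC-3-BM and 6.34 and 6.21 in PC-3 (difference 0.59, adjusted p = 0.00942). Both rose without overlap between the lines. PCDHB13 had 6.36 and 5.97 on the PC-3-BM arrays and 5.69 and 5.57 on the PC-3 arrays. Its lines did not overlap either, but its PC-3-BM arrays had an SD of 0.28 and it missed the threshold (difference 0.53, SE 0.15, adjusted p = 0.0637).

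**Figure D1:**
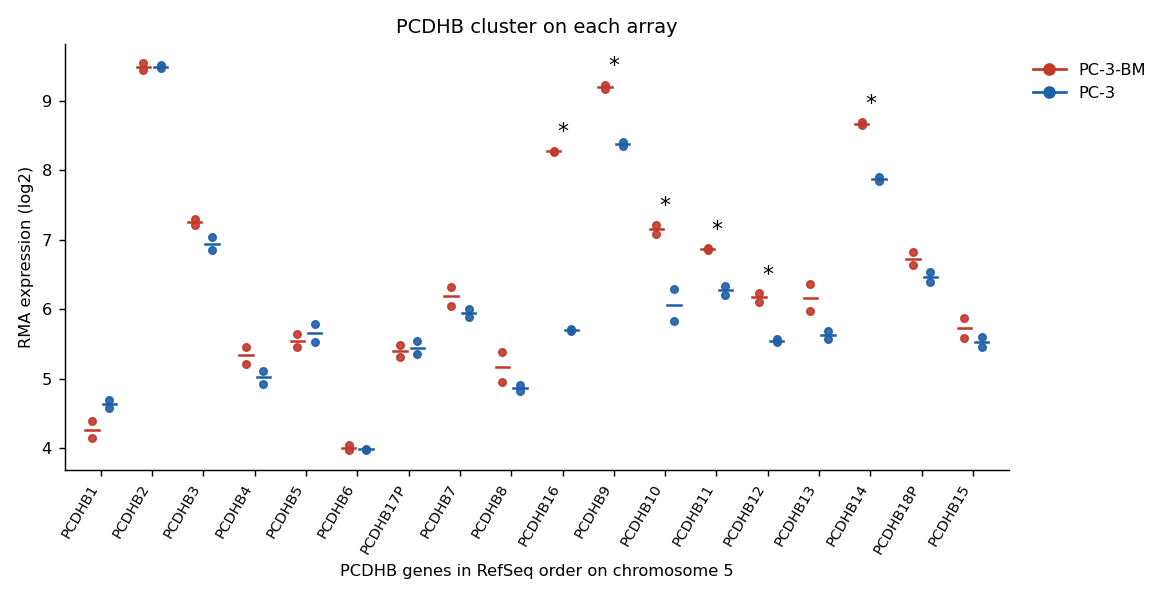
RMA expression (log2, vertical axis) of the 18 PCDHB members on the PC-3-BM arrays (red) and the PC-3 arrays (blue), in RefSeq order along chromosome 5. Points are single arrays, bars are the means of 2 arrays and an asterisk marks an adjusted p below 0.05. The asterisks stand over PCDHB16, PCDHB9, PCDHB10, PCDHB11, PCDHB12 and PCDHB14, while PCDHB2 has the same mean of 9.49 in both lines. Heights of different genes depend on their probes and are not to be set against each other.

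The members that rose lay next to each other, with PCDHB13 among them. In RefSeq order the cluster runs PCDHB1, 2, 3, 4, 5, 6, 17P, 7, 8, 16, 9, 10, 11, 12, 13, 14, 18P and 15. The 9 members before PCDHB16 had 0 calls and a median difference of 0.02 (range -0.37 to 0.32). In the 7 members from PCDHB16 to PCDHB14 there were 6 calls, all rises, beside 14.8% of all genes that rose. Both PC-3-BM arrays lay above both PC-3 arrays in each of the 7, beside 30.9% of all genes. The median difference there was 0.79 (range 0.53 to 2.57). The 2 members after PCDHB14 had 0 calls and differences of 0.26 and 0.20. This division was drawn after the values had been seen and carries no test.

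Among the members before PCDHB16, PCDHB2 had 9.44 and 9.54 on the PC-3-BM arrays and 9.51 and 9.47 on the PC-3 arrays. The lines overlapped, and the 95% interval of the difference ran from -0.19 to 0.19. PCDHB1 had 4.14 and 4.39 in PC-3-BM and 4.58 and 4.70 in PC-3. It was the only PCDHB member with both PC-3-BM arrays below both PC-3 arrays, at a dim level and short of the threshold (difference -0.37, adjusted p = 0.0708), which it passed as a fall with 1-symbol probe sets only (0.0213). Dim means that both line means lay under 5.02, the lower quartile of all values, and RMA gives no detection call. PCDHB3 and PCDHB4 had differences of 0.31 (adjusted p = 0.0816) and 0.32 (adjusted p = 0.128). PCDHB7 and PCDHB8 had 0.24 (adjusted p = 0.213) and 0.30 (adjusted p = 0.234). All of these were without overlap and short of a call. PCDHB5 had a difference of -0.11, PCDHB6, the other dim member, 0.02, and the pseudogene PCDHB17P -0.04, with overlapping lines in each. After PCDHB14, the pseudogene PCDHB18P had 0.26 (adjusted p = 0.142) and PCDHB15 0.20 (adjusted p = 0.326). PCDHB genes are close in sequence, and whether probes of one member also read another was not tested.

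In the PCDHA cluster, 0 of 12 members were called, and all 12 differences were small and below 0. They ran from -0.21 to -0.05 with a median of -0.15, and both PC-3-BM arrays lay below both PC-3 arrays in 10 of 12, beside 39.8% of all genes. PCDHA13 had 8.05 and 8.17 on the PC-3-BM arrays and 8.34 and 8.31 on the PC-3 arrays, the lowest adjusted p of the cluster at 0.117. PCDHA3, with the same difference of -0.21, had an adjusted p of 0.149. PCDHA transcripts share their last exons, so these members are not independent measures of the cluster. A probe set annotated to 15 PCDHA symbols had 6.28 and 6.36 in PC-3-BM and 6.49 and 6.43 in PC-3 (difference -0.14, adjusted p = 0.251), near the members' median. PCDHGB4, the 1 PCDHG member with a probe set annotated to it alone, had 8.12 and 8.15 on the PC-3-BM arrays and 7.63 and 7.71 on the PC-3 arrays. It rose by 0.46 (SE 0.07, adjusted p = 0.0136). Whether this probe set also reads other PCDHG transcripts was not tested.

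The genes around the clusters were read in the same order. Of the 12 neighbours, 5 before the PCDHA cluster, 2 between PCDHB and PCDHG and 5 after the PCDHG cluster, 1 rose (8.33%) and 3 fell (25%), beside 14.8% of all genes in each direction, with a median of 0.05 (0 to 3 calls with 1 array left out). TAF7, a subunit of the general transcription factor TFIID that lies between the PCDHB and PCDHG genes, had 6.42 and 6.32 on the PC-3-BM arrays and 6.95 and 7.05 on the PC-3 arrays, and fell by 0.63 (adjusted p = 0.00818). SLC25A2, a mitochondrial ornithine carrier beside it, had a difference of -0.02. FCHSD1 rose by 0.49 (adjusted p = 0.0151). WDR55 fell by 0.48 (adjusted p = 0.0233) and HARS1, the cytosolic histidyl-tRNA synthetase, fell by 0.43 (adjusted p = 0.0223).

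**Figure D2:**
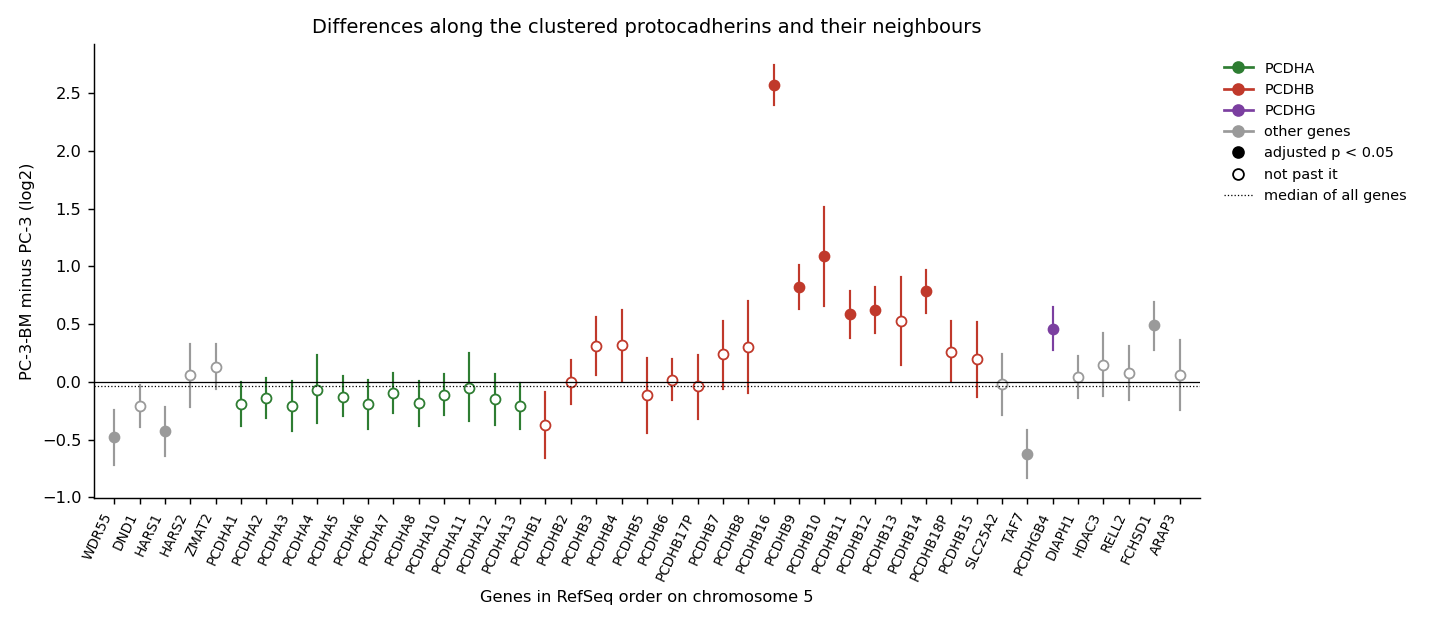
Difference between the lines (PC-3-BM minus PC-3, log2, vertical axis) for the clustered protocadherins and their 12 neighbours in RefSeq order along chromosome 5. Points are fitted differences, bars their 95% confidence intervals, filled points passed an adjusted p below 0.05, and the dotted line is the median of all genes (-0.04). The filled PCDHB points form 1 stretch from PCDHB16 (2.57) to PCDHB14 (0.79), interrupted by PCDHB13 (0.53), and the PCDHA points lie between -0.21 and -0.05.

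Of the 11 protocadherins outside the clusters, 4 rose (36.4%) and 2 fell (18.2%), beside 14.8% of all genes in each direction, and the median difference was -0.12. PCDH9, a delta protocadherin of the nervous system, had 7.56 and 7.42 on the PC-3-BM arrays and 5.78 and 5.66 on the PC-3 arrays. It stood 3.41-fold higher in PC-3-BM (difference 1.77, SE 0.09, adjusted p = 0.00149), with no overlap, the largest difference of the family after PCDHB16. PCDH18, another delta protocadherin, had 8.41 and 8.60 in PC-3-BM and 7.72 and 7.86 in PC-3, and rose by 0.71 (SE 0.10, adjusted p = 0.0109). PCDH7 had 6.76 and 6.67 on the PC-3-BM arrays and 6.24 and 6.32 on the PC-3 arrays, and rose by 0.43 (adjusted p = 0.019). PCDH17, which recruits the actin-nucleating WAVE complex, had 6.88 and 6.79 in PC-3-BM and 6.49 and 6.52 in PC-3, and rose by 0.33 (adjusted p = 0.035).

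The members that fell did so by less than PCDH9 rose. PCDH20 had 5.62 and 5.76 on the PC-3-BM arrays and 6.11 and 6.32 on the PC-3 arrays, and fell by 0.52 (SE 0.11, adjusted p = 0.0271). PCDH19, the X-linked gene of a female-limited epilepsy, had 4.76 and 4.61 in PC-3-BM and 5.06 and 5.06 in PC-3, and fell by 0.38 (adjusted p = 0.0337) at levels near the lower quartile of the arrays. PCDH9, PCDH17, PCDH20 and PCDH8 all lie on chromosome 13, and their differences were 1.77, 0.33, -0.52 and -0.34. PCDH8 missed the threshold (adjusted p = 0.184). The remaining 4, PCDH10, PCDH1, PCDH12 and the dim PCDH15, had differences from -0.20 to 0.15 and adjusted p-values from 0.14 to 0.384. With either PC-3 array left out PCDH9 alone of the 11 kept its call, and with either PC-3-BM array left out PCDH9 and PCDH18 did. PCDH19 also missed the threshold with the arrays centred on their medians (adjusted p = 0.0505) and with a mean-variance trend (0.0513). A pair of probe sets annotated to both PCDH11X and PCDH11Y fell by 0.39 and 0.45 (adjusted p = 0.0186 and 0.0122). Both genes are protocadherins outside the clusters. These probe sets carry 2 symbols, so they were given to neither gene and not counted among the 11 members.

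Among the 4 type I cadherins, only N-cadherin was called. CDH2, which encodes it, had 10.79 and 10.83 on the PC-3-BM arrays and 10.48 and 10.46 on the PC-3 arrays. The lines did not overlap, and CDH2 rose 1.27-fold (difference 0.34, SE 0.07, adjusted p = 0.0254). CDH1, which encodes E-cadherin, had 4.96 and 5.07 in PC-3-BM and 5.10 and 4.95 in PC-3. Its lines overlapped, and the 95% interval of the difference ran from -0.24 to 0.22. Both line means of CDH1 were 5.02, at the lower quartile of all values, and whether it was expressed at all was not tested. CDH3, which encodes P-cadherin of basal epithelium, had 6.07 and 6.03 on the PC-3-BM arrays and 6.09 and 5.95 on the PC-3 arrays, with an interval from -0.18 to 0.24. CDH15, the cadherin of muscle, had a difference of -0.26 without overlap and without a call (adjusted p = 0.119).

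The largest cadherin differences were in type II, where 3 of 13 members rose (23.1%) and 0 fell, beside 14.8% of all genes in each direction. CDH6, known as kidney cadherin, had 9.38 and 9.34 on the PC-3-BM arrays and 8.04 and 8.07 on the PC-3 arrays. The arrays of a line nearly coincided, and the level was 2.47-fold higher in PC-3-BM (difference 1.31, SE 0.07, adjusted p = 0.0016). CDH8, best known from the brain, had 7.31 and 7.16 in PC-3-BM and 6.37 and 6.41 in PC-3, and rose by 0.85 (SE 0.08, adjusted p = 0.00467). CDH7, a cadherin of neural crest and neural tube in the chick, had 8.69 and 8.60 in PC-3-BM and 7.80 and 7.82 in PC-3, and rose by 0.83 (SE 0.07, adjusted p = 0.00375). Neither gene showed overlap between the lines, and these 3 kept their calls with any 1 array left out, while CDH2 lost its own each time.

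CDH11, the cadherin of osteoblasts, had 11.86 and 11.91 on the PC-3-BM arrays and 11.62 and 11.62 on the PC-3 arrays. Both PC-3-BM arrays were higher, and the difference of 0.27 (95% interval 0.09 to 0.44) fell just short of the threshold at an adjusted p of 0.0509. CDH5, the cadherin of endothelium, had a difference of -0.06 (adjusted p = 0.615). The remaining 8 type II members had differences from -0.07 to 0.23 without a call, and 4 of them, CDH9, CDH10, CDH18 and CDH19, were dim. CDH6 lies on the same chromosome arm as CDH9, CDH10, CDH12 and CDH18, none of which was called. Outside both types, 0 of 4 members were called. CDH16 of the kidney had a difference of -0.31 (adjusted p = 0.0717), CDH23 of the hair cell tip link -0.13, CDH26 -0.05 and the dim CDH17 of the intestine 0.02.

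**Figure D3:**
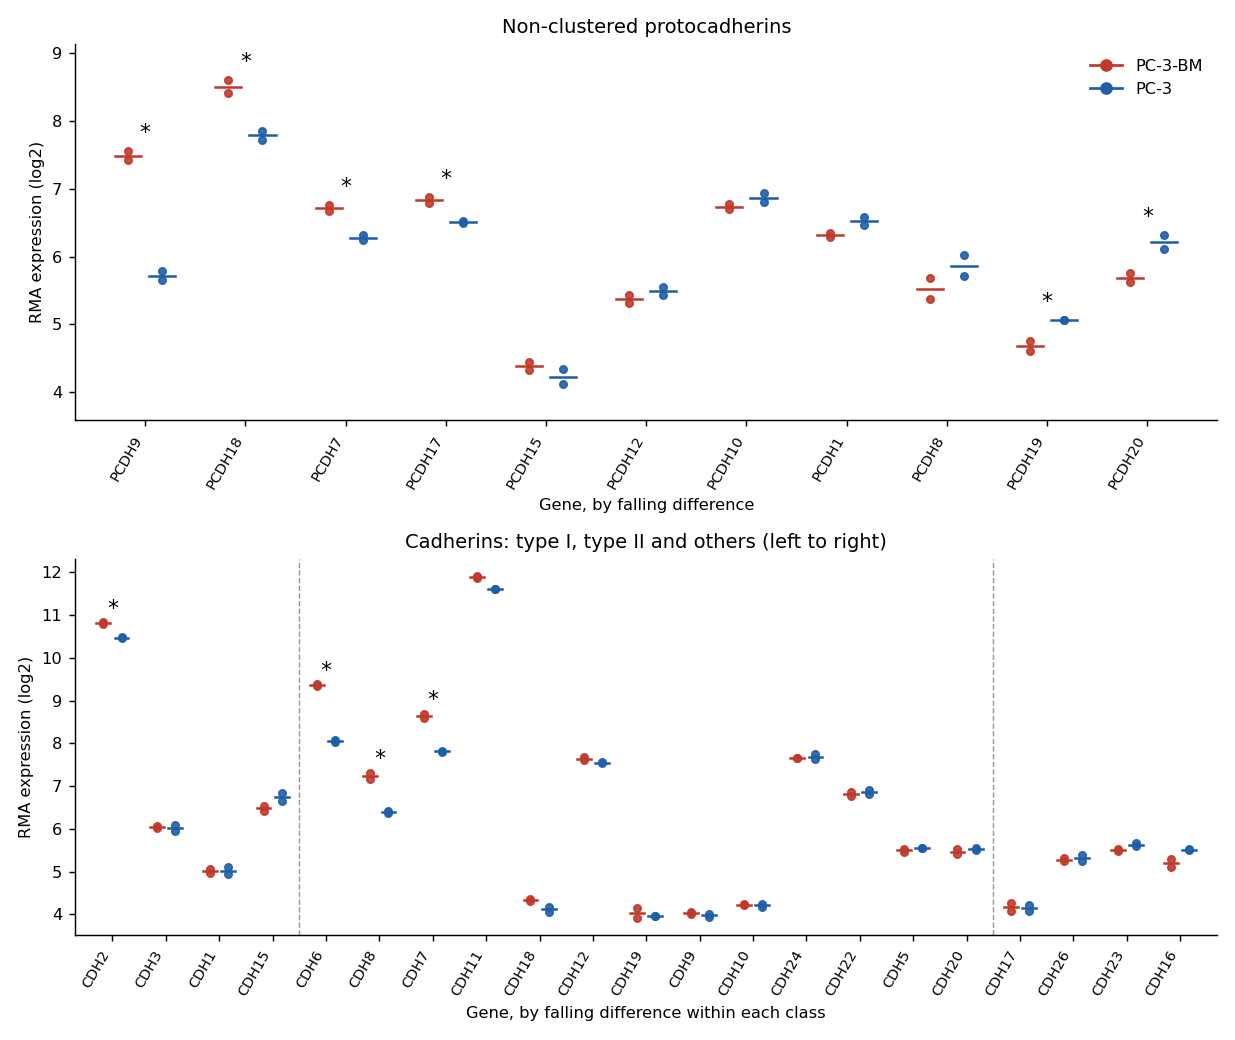
RMA expression (log2, vertical axes) of the 11 protocadherins outside the clusters (top) and the 21 cadherins (bottom) on the PC-3-BM arrays (red) and the PC-3 arrays (blue). Points are single arrays, bars means of 2 arrays, asterisks an adjusted p below 0.05, and dashed lines part type I, type II and other cadherins. PCDH9 and CDH6 have the widest gaps (1.77 and 1.31), while the points of CDH1 and CDH3 overlap.

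Genes that work with these proteins were read from 5 lists of 93 genes, of which 88 were measured, and the shares of each list stand beside 14.8% of all genes that rose and 14.8% that fell. Among 19 catenins and junction linkers, 3 rose (15.8%) and 3 fell (15.8%), with a median of -0.02 (1 to 4 calls with 1 array left out). These shares are near those of all genes. PKP1, a desmosomal plakophilin, fell by 0.76, at 9.60 and 9.59 on the PC-3-BM arrays and 10.36 and 10.34 on the PC-3 arrays (adjusted p = 0.00382). AFDN, the linker of nectins to actin, rose by 0.74 (adjusted p = 0.00842), and CTNND2, the delta-catenin of neurons, rose by 0.66 (adjusted p = 0.00766). The other called members were NECTIN2, which rose, and NECTIN1 and VCL, which fell.

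Of 17 protocadherin effectors and giant cadherins, 5 rose (29.4%) and 2 fell (11.8%), with a median of -0.08 (2 to 4 calls with 1 array left out). FAT1, a giant cadherin, had 7.80 and 7.79 on the PC-3-BM arrays and 9.79 and 9.69 on the PC-3 arrays, the largest change of the 5 lists. It was 0.259 times its PC-3 level (difference -1.95, SE 0.07, adjusted p = 0.001). FAT4, a giant cadherin that binds DCHS1, moved the other way, with 8.12 and 7.99 in PC-3-BM and 7.29 and 7.42 in PC-3 (difference 0.70, adjusted p = 0.00785). ABI1, a WAVE complex subunit, had 8.86 and 8.77 in PC-3-BM and 7.78 and 7.84 in PC-3, and rose by 1.0 (adjusted p = 0.00286). Of the other WAVE complex genes, WASF2, CYFIP1 and NCKAP1 rose by 0.35, 0.38 and 0.36, while BRK1, CYFIP2 and WASF3 had differences of -0.18, -0.17 and -0.13 without a call. PTK2, the focal adhesion kinase that some clustered protocadherins bind, fell by 0.66 (adjusted p = 0.0106).

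Among 22 promoter and chromatin regulators of the clustered protocadherins, 2 rose (9.09%) and 2 fell (9.09%), with a median of -0.06 (1 to 3 calls with 1 array left out). UHRF1, which brings the maintenance DNA methyltransferase to replicated DNA, had 8.54 and 8.76 on the PC-3-BM arrays and 9.66 and 9.73 on the PC-3 arrays, and fell by 1.05 (adjusted p = 0.00443). With the mean of its probe sets in place of the brightest, the difference was -0.50 (adjusted p = 0.0112). TET1, which oxidises methylcytosine, had 5.75 and 5.95 in PC-3-BM and 6.70 and 6.75 in PC-3, and fell by 0.88 (adjusted p = 0.00536). The cohesin subunit SMC3 rose by 0.45 (adjusted p = 0.0405) and the cohesin loader NIPBL by 0.39 (adjusted p = 0.0213). The cohesin subunit STAG1 had 6.60 and 6.16 on the PC-3-BM arrays and 7.02 and 6.96 on the PC-3 arrays, a difference of -0.61 that missed the threshold (adjusted p = 0.0509), and SMC1A, RAD21 and STAG2 had differences of -0.10, 0.07 and 0.04. The call count of this list was 7 or 8 under 3 of the alternatives, with 5 or 6 that fell.

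Of 17 repressors and activators of cadherin genes, 4 rose (23.5%) and 1 fell (5.88%), with a median of -0.06 (1 to 4 calls with 1 array left out). TCF4, an E-box factor, rose by 0.83 (adjusted p = 0.00931), GRHL1, a grainyhead factor of epithelia, by 0.82 (adjusted p = 0.00734) and KLF4, an activator of CDH1, by 0.65 (adjusted p = 0.0317). ZEB1, a repressor of CDH1, rose by 0.54 (adjusted p = 0.00824), and the epithelial splicing factor ESRP2 fell by 0.50 (adjusted p = 0.00922). Of 13 cadherin-cleaving and endocytic proteins, 5 rose (38.5%) and 1 fell (7.69%), with a median of 0.27 (0 to 2 calls with 1 array left out). The sheddases ADAM17 and ADAM10 rose by 0.61 (adjusted p = 0.00673) and 0.42 (adjusted p = 0.0192), and the gamma-secretase subunit NCSTN rose by 0.52 (adjusted p = 0.00975). PSENEN and NUMB rose as well, and ADAM15 fell.

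**Figure D4:**
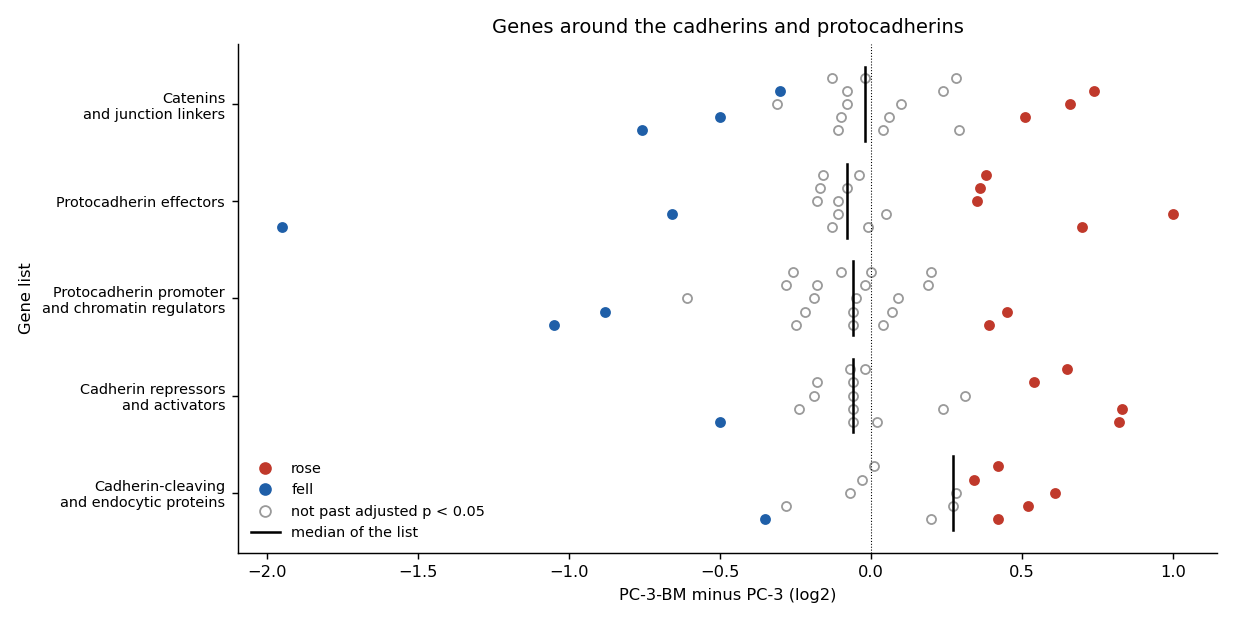
Difference between the lines (PC-3-BM minus PC-3, log2, horizontal axis) for the 88 measured genes of 5 lists (rows). Each point is a gene, red where it rose, blue where it fell and open where it did not pass an adjusted p below 0.05, and black bars are list medians. The bar of the cleaving and endocytic proteins lies at 0.27, the others between -0.08 and -0.02, and FAT1 is the point at -1.95.

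Marker lists were read beside the members. KRT18, a keratin of simple epithelium, stood at 10.31 and 10.43 on the PC-3-BM arrays and 10.83 and 10.71 on the PC-3 arrays, and KLK3, the prostate-specific antigen, at 6.0 and 5.72 in PC-3-BM and 5.83 and 5.76 in PC-3. The calls of each list stand beside 14.8% of all genes that rose and 14.8% that fell. Of 7 genes of the prostate epithelial line, 2 rose (28.6%, ITGA2 by 1.26 and ITGA6 by 0.69) and 4 fell (57.1%). KRT8 fell by 2.03, EPCAM fell by 1.30, KRT18 fell by 0.40 and KRT19 fell by 0.33. Their log2 values summed to 70.8 and 71.2 on the PC-3-BM arrays and 73.1 and 73.1 on the PC-3 arrays. The sums of 7 haematopoietic markers were 42.7 and 42.7 in PC-3-BM and 42.4 and 42.0 in PC-3. Among them 1 was called (14.3%, CD68 rose by 0.72), and PTPRC, the pan-leukocyte marker, and CD3E were dim. The sums of 7 osteoblast and stromal markers were 41.1 and 41.5 in PC-3-BM and 40.1 and 40.1 in PC-3. Among them 2 were called (28.6%, COL1A1 rose by 0.68 and LUM by 0.53), and IBSP, LUM and DCN were dim. Of 6 endothelial markers 1 rose (16.7%, PECAM1 by 0.45) and TEK was dim. KDR of the same list stood at 10.76 and 10.65 on the PC-3-BM arrays and 10.94 and 10.8 on the PC-3 arrays, without a call. Of 5 neural and 2 androgen-responsive luminal markers none was called. The part of these markers in the cadherin and protocadherin values was not tested.

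Beside the study's thresholds, 10 alternatives were run, each array left out among them. PCDHB16, PCDHB9, PCDHB14, PCDH9, CDH6, CDH7 and CDH8 kept their calls in all 10, with a highest adjusted p of 0.0287 for PCDHB16 and 0.0451 for CDH8. PCDHB10 missed the threshold without either PC-3-BM array, PCDHB12 without either PC-3 array, and PCDHB11 without PC-3-BM array 1 or PC-3 array 2, at adjusted p-values up to 0.0697, 0.0596 and 0.0613. PCDH18 missed it without either PC-3 array (up to 0.071). CDH2, PCDH7, PCDH17, PCDH19, PCDH20 and PCDHGB4 missed it whichever of the 4 arrays was left out, at adjusted p-values up to 0.149.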

How the data were processed

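Total RNA of PC-3-BM and PC-3 cells was labelled and hybridised to Affymetrix Human Gene 1.0 ST arrays. The authors normalised the scans with the robust multichip average (RMA), and the deposited values are RMA log2 expression values of 33297 probe sets. Tools listed in the submitters' processing notes were limma 3.24 and R 3.2. The files name no genome build. RMA sets all arrays to 1 distribution, so a shift of all transcripts would not be seen. No batch is given, and the number of arrays limits the precision.

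Probe sets were named from the platform annotation (19460 with 1 symbol, 1754 with several, 12083 with none). The lines were compared with limma 3.58.1 under R 4.3.3, using empirical Bayes moderation (2.88 prior beside 2 residual degrees of freedom) and p-values adjusted after Benjamini-Hochberg across every probe set. The smallest two-sided p that an exact permutation test allows here is 0.333. The fit was tested on simulated data with independent noise on each array. Such data cannot show how the calls behave if the arrays of a line share a culture.

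The members, gene lists and tests were chosen with earlier results of these data known. Named genes were every PCDHB member, up to 6 called members per direction in each other class, CDH1, CDH2, CDH3 and CDH11, and up to 3 called genes per list, and other genes were named after their values were seen. Promoters and gene order came from RefSeq (GRCh38.p14). All 63 members matched the RefSeq gene table. Protein sequences were not analysed here. The alternatives were centring on array medians, a mean of at least 5, 1-symbol probe sets only, a mean-variance trend, a replicate block, the mean of a gene's probe sets, each array left out and the study's thresholds.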

Additional observations from a re-analysis of the deposited data

How the results depend on the processing

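At the study's thresholds 17 probe sets remained over all, 1 in the PCDHB cluster and 0 among the other protocadherins, the cadherins, the neighbours and each of the 5 lists. With 2 arrays a line, leaving out 1 array leaves a lone array that is assumed to vary like the other line. The calls over all probe sets were then 2238 to 3854, beside 7717 with all arrays, those in the PCDHB cluster 4 to 6 (6 with all), in the other protocadherins 1 to 2 (7 with all), in the cadherins 3 to 3 (4 with all) and in the neighbours 0 to 3 (4 with all). In the lists they were 1 to 4 for catenins and linkers, 2 to 4 for protocadherin effectors, 1 to 3 for promoter and chromatin regulators, 1 to 4 for repressors and activators and 0 to 2 for cleaving and endocytic proteins. Of the 17 members called, 9 and 8 kept their call without PC-3 array 1 and array 2, and 9 and 10 without PC-3-BM array 1 and array 2. With 1-symbol probe sets only, 10 catenins and linkers and 8 chromatin regulators were called, and the chromatin regulators called were 7 with a mean of at least 5 and 7 with a mean-variance trend. PCDH19 lost its call with centred medians and with the mean-variance trend, and it was not tested with a mean of at least 5. CDH11 gained a call in 4 alternatives and PCDHB13 in 5, both as rises. PCDHB3 gained one as a rise with 1-symbol probe sets only (adjusted p = 0.0283). CDH16 gained one as a fall in 2 alternatives, and so did PCDHB1 (1-symbol probe sets only, 0.0213, and the replicate block, 0.0498), so that the PCDHB cluster then held 1 fall. Among the genes named by rule, signs turned only in members without a call: CDH1 and PCDHB2 (both 0.03 with centred medians) and, with 1 array left out, CDH1 (-0.08 to 0.07), PCDHB2 (-0.05 to 0.05), PCDHB17P (-0.14 to 0.05), CDH3 (-0.04 to 0.10), PCDHB5 (-0.24 to 0.02) and PCDHB6 (-0.01 to 0.06). Centring moved the median of all differences by 0.03. The cause of these changes was not tested.

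The arrays of both lines are numbered 1 and 2, and the deviations of same-numbered arrays had a correlation of -0.02 over the probe sets. The labels do not say whether same-numbered arrays shared a culture or a batch, and this was not tested. With the number as a replicate block, 6473 probe sets were called, as were 8 PCDHB members, 5 other protocadherins, 3 cadherins, 4 neighbours, 5 catenins and linkers, 6 protocadherin effectors, 5 chromatin regulators, 5 repressors and activators and 4 cleaving and endocytic proteins. CDH2 (adjusted p = 0.0536), the only type I cadherin called, PCDH17 (0.0654) and PCDH19 (0.0525) lost their calls, and of the PCDHB calls 7 were rises and 1, PCDHB1, a fall.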
